A study of Mus musculus with 12 samples.

Results

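The genes described here run mitosis: kinases, cyclins, checkpoint proteins, kinetochore subunits, kinesins and cytokinesis factors, with the nuclear proliferation markers Mki67 and Top2a. A list of 48 such genes was matched to the array by symbol, taking probe sets (the array's units of measurement) that are annotated with exactly 1 gene symbol. It found 47 of the 48 genes, in 48 of the 21780 one-symbol probe sets, which cover 19934 genes. Ccnb1, which encodes cyclin B1, was not analysed here, and Top2a had 2 probe sets.

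The study set glioblastoma cells of different cellular origin side by side, and its 12 cultures were untreated mouse brain cells kept adherent in stem cell conditions. The mGC1_GFAP, mGC2_NES and mGC3_CNP groups held 3 tumour cultures each, from G/tv-a, N/tv-a and C/tv-a mice, and the 3 neural stem cell (NSC) cultures came from the subventricular zone of adult mice, 1 per line. All mice lacked Arf, so all 12 cultures, controls included, were Arf-/-. The tumours were started in adult brain by injecting DF-1 chicken cells that release RCAS-PDGFB-HA, a virus that carries the growth factor PDGFB and can enter only cells with the tv-a receptor. The receptor is driven by the promoter of Gfap in G/tv-a mice, of Nes in N/tv-a mice and of Cnp in C/tv-a mice, genes of astrocytes and stem cells, of progenitors, and of the oligodendrocyte lineage. Origin and mouse line coincide in the tumour cultures and cannot be told apart there. The labels call those cultures biological replicates but do not tie them to separate animals, and the p-values below therefore rest on culture-to-culture spread, which may be partly technical.

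Entry into mitosis is driven by CDK1 with A and B cyclins, and the Aurora and Polo-like kinases then build the spindle. The spindle checkpoint holds back the anaphase promoting complex until the kinetochore of every chromosome is attached to microtubules. Once released, the complex marks securin and cyclin B for destruction, separase opens the cohesin rings, and kinesins and the midzone part the chromosome sets and the cell divides. Most of these genes are transcribed in G2 and mitosis, under repressor and activator complexes that bind a promoter element called the cell cycle genes homology region (CHR), often with NF-Y at a nearby CCAAT box.

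The members' promoters are shown first because they are a feature that the choice of genes did not use. RefSeq start sites on build GRCm38.p6 gave 46 promoters for 41 of the 48 genes, each reaching from 250 bases before to 50 bases after the start. The CHR letters TTTGAA or TTCGAA, searched on both strands, lay in the promoters of 29 of the 41 genes (70.7%), against 21.7% of all 27025 genes in the table. CCAAT, on either strand, lay in those of 28 genes (68.3%, against 41.1%), and both elements in those of 24 genes (58.5%, against 8.61%). E2F-like letters, which were searched as TTTGGCG, as the related form TTTCGCG and as the further form TTTCCCG on both strands, lay in those of 8 genes (19.5%, against 6.38%). Over the 15611 genes of the table that have one-symbol probe sets, the shares were 19.0% for CHR, 41.7% for CCAAT, 7.69% for both and 8.44% for E2F-like letters. The CHR, CCAAT and E2F-like letters do not contain one another, and a match is a description, not a shown binding site. The stretches printed here, 120 bases before and 30 after the start, are those of 6 members with both elements and of Pttg1, which had neither and stood apart in its levels. Capitals mark CHR and CCAAT letters or their complements, TTCAAA for the first CHR form and ATTGG for CCAAT.
Bub1: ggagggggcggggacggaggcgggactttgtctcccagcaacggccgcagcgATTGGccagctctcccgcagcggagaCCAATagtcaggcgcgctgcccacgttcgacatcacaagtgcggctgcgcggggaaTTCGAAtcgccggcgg
Cenpn: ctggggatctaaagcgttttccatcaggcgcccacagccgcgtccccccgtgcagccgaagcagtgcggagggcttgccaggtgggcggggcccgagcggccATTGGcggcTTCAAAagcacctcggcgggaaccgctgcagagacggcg
Cdc20: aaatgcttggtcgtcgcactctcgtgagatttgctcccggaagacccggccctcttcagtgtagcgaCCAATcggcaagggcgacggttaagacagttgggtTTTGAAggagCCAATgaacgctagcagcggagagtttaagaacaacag
Ube2c: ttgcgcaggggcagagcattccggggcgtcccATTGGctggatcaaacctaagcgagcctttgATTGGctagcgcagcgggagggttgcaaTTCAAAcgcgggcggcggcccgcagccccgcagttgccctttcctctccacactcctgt
Espl1: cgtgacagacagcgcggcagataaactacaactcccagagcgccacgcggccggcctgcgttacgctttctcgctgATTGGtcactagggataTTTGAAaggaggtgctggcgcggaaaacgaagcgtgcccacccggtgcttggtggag
Spc25: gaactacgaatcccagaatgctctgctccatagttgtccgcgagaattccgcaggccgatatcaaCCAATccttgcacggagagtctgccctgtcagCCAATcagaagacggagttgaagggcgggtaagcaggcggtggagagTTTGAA
Pttg1: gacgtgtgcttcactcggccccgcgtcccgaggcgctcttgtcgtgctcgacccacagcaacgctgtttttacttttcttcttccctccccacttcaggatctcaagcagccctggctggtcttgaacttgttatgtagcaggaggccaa
The Bub1 stretch lies on chr2:127831830-127831979 (minus strand), Cenpn on chr8:116921620-116921769 (plus), Cdc20 on chr4:118437314-118437463 (minus) and Ube2c on chr2:164769809-164769958 (plus). Espl1 lies on chr15:102296173-102296322 (plus), Spc25 on chr2:69206184-69206333 (minus) and Pttg1 on chr11:43425952-43426101 (minus). None of the searched letters lay in the windows of Mad2l1, Nuf2, Plk4 and Pttg1. Birc5, Cenpe, Cenpk, Kif18a, Melk, Nek2, Nusap1 and Ccnb1 had CCAAT or E2F-like letters without CHR.

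Values are log2 signals, given by culture in the order replicate 1, 2 and 3 for tumour groups and G/tv-a, N/tv-a and C/tv-a for NSC. A level says little across genes, since probe sets differ in brightness, so comparisons are made within a gene. Transcripts of spermatids (Prm2, Odf1, Tnp1 and Tnp2), treated as absent from these cells, read 5.60 to 7.42, and each member except the dim Top2a probe set read above 7.42 on all 12 arrays. Differences are given on the log2 scale ± the standard error of limma's fit, and a gene was called at a Benjamini-Hochberg adjusted p under 0.05 over all 21780 probe sets. In extracts of whole cultures, fewer dividing cells and less transcript per dividing cell cannot be told apart.

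The N/tv-a tumour cultures, mGC2_NES, had the lowest levels of the mitotic genes. Their group mean was the lowest of the 3 tumour groups in 47 of 48 probe sets, against 32.8% of all probe sets on the array. The dim Top2a probe set was the exception. The mGC1_GFAP mean was the highest in 31 and the mGC3_CNP mean in 17, against 33.5% and 27.4% of all probe sets. The moderated F test called 12 of 48 probe sets (25%) as different among tumour groups, against 4.05% of all: Ccna2, Bub1, Ttk, Birc5, Ube2c, Pttg1, Espl1, Cenpk, Cenpn, Kif15, Kif18a and Nusap1. Leaving out any 1 of the 9 cultures moved this count, to 1 without mGC1_GFAP replicate 1, mGC2_NES replicate 2 or mGC2_NES replicate 3, to 2 without mGC1_GFAP replicate 3 or mGC3_CNP replicate 3, to 3 without mGC1_GFAP replicate 2, to 7 without mGC3_CNP replicate 1 or 2, and to 19 without mGC2_NES replicate 1.

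Between mGC1_GFAP and mGC2_NES, 17 members were called, all 17 higher in mGC1_GFAP, where 6.13% of all probe sets were called and 3.12% were higher. The difference was above 0 for all 48 probe sets, with a median of 0.42 against -0.01 over all probe sets, and 35 had an unadjusted p under 0.05 (20.6% of all probe sets). The 3 arrays of each group did not overlap in 37 members, all higher in mGC1_GFAP, against 12.8% of all probe sets in that direction. Apart from Pttg1, at 3.50-fold, the called differences were between 1.26-fold (Ube2c) and 1.68-fold (Cenpe). Pttg1 read 7.54 to 7.99 in mGC2_NES, near the 7.42 reached by absent transcripts, which limits how its fold can be read. The count was 4, 8 and 7 without mGC1_GFAP replicates 1, 2 and 3, and 29, 6 and 7 without mGC2_NES replicates 1, 2 and 3. The median stayed between 0.33 and 0.54 over these exclusions. Pttg1, Birc5 and Cenpn were called under all 18 alternatives tried. The calls of Foxm1, Plk4 and Cdca8 were lost under 8 each, the most among the 17.

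The other tumour pairs gave few calls. Between mGC1_GFAP and mGC3_CNP no member was called by limma, against 0.487% of all probe sets; 4 had an unadjusted p under 0.05 (12.9% of all), and the median difference was 0.05. No member was called under any other setting of that comparison either. For mGC2_NES against mGC3_CNP, Pttg1 alone was called, lower in mGC2_NES, where 0.459% of all probe sets were called and 0.193% were lower. In that pair 47 of 48 differences were below 0, with a median of -0.40 against 0.01 over all probe sets, and 34 had an unadjusted p under 0.05 (13.3% of all). The arrays did not overlap, with mGC2_NES lower, in 27, against 8.38% of all. Without mGC2_NES replicate 1 the count became 6, and without mGC3_CNP replicate 2 it became 2, all lower in mGC2_NES.

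**Figure D1:**
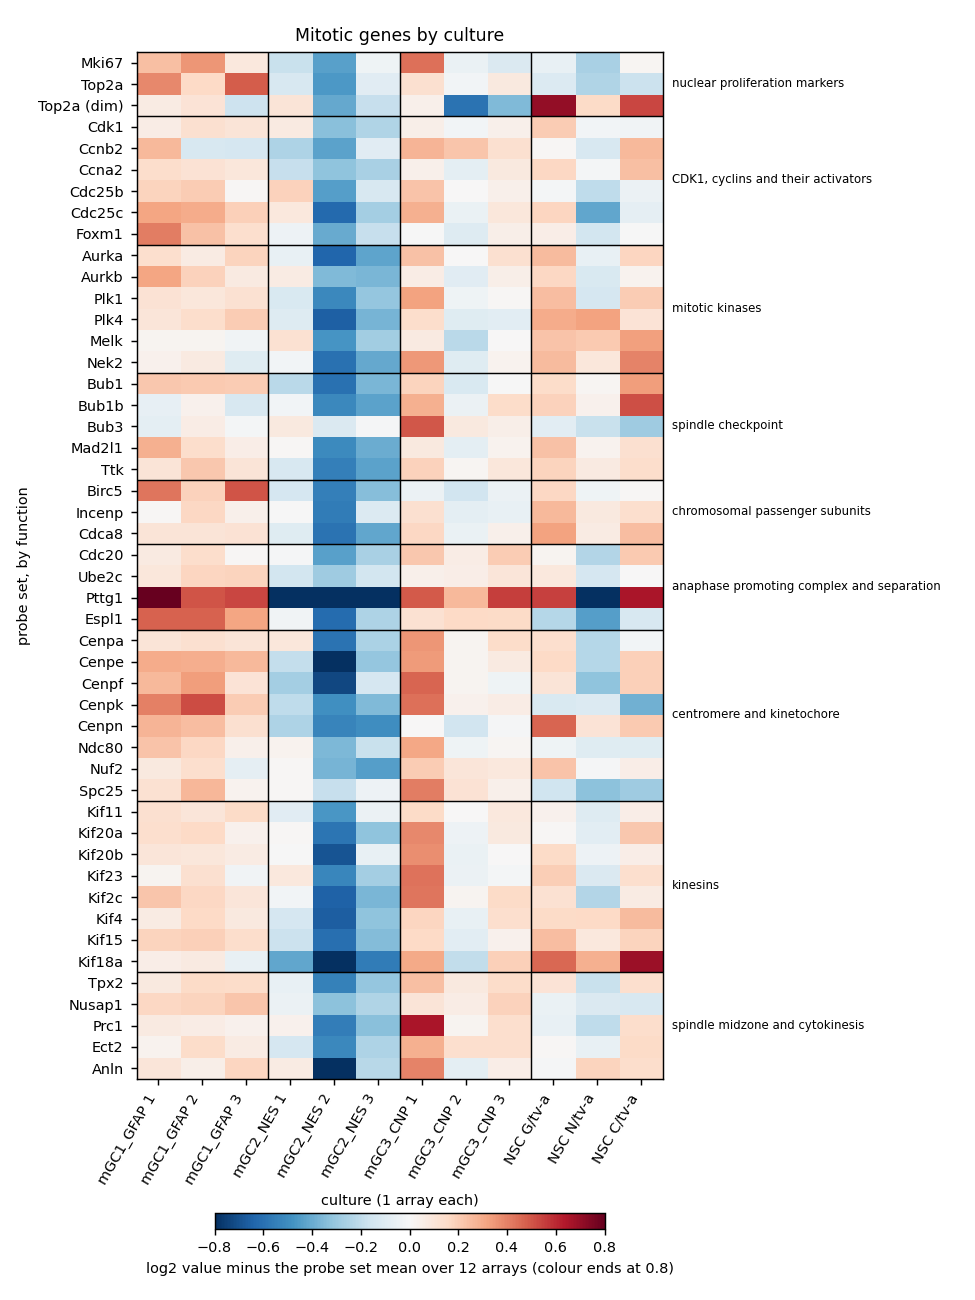
Log2 level of each mitotic probe set (rows, grouped by function) in each culture (columns), as the difference from that probe set's mean over 12 arrays; colours end at ±0.8. The mGC2_NES columns are mostly blue, palest in replicate 1 and darkest in replicate 2, and Pttg1 is also low in the N/tv-a NSC culture.

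The cultures of a tumour group were not alike, and their mitotic genes moved together. In mGC2_NES, replicate 1 was the highest of its group in 42 of 48 probe sets and replicate 2 the lowest in 45. The shares over all probe sets were 38.3% and 28.9%. Replicate 2 was also the lowest of all 9 tumour arrays in 44, against 10.7% of all probe sets. In mGC3_CNP, replicate 1 was the highest in 42 and replicate 2 the lowest in 40, against 39.3% and 31.1% of all. Its replicate 1 was the highest of all 9 tumour arrays in 27, against 14.4% of all. The mGC1_GFAP cultures lay closer, with replicate 3 the lowest in 31, against 35.4% of all. The same replicate numbers were thus mostly the highest and the lowest in mGC2_NES and mGC3_CNP, but not in mGC1_GFAP. Whether these shared numbers reflect shared handling was not tested. The median over member probe sets, each centred on its own average, was 0.13, 0.15 and 0.10 in mGC1_GFAP and -0.05, -0.53 and -0.28 in mGC2_NES. It was 0.23, -0.03 and 0.06 in mGC3_CNP, and 0.15, -0.10 and 0.14 in NSC. On this scale mGC2_NES replicate 1 lay just under mGC3_CNP replicate 2, while the other mGC2_NES cultures lay below every other culture.

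After the group means were taken out, the median Pearson correlation between 2 members over the 9 tumour arrays was 0.78 over 1128 pairs, 99.7% of them above 0. A member's correlation with the mean of the others had a median of 0.92, and 33 of 48 exceeded 0.8; these points share arrays and are given as a description. The correlations were lowest for Ccnb2 (0.38), Pttg1 (0.48) and Ube2c (0.50), and Ube2c varied little within groups, with an SD of its deviations of 0.05. The 10 other genes most like the members' mean were Sgo2a, Rnf146, Cep55, Ncapg2, Pigo, Cenpu, Dsn1, Ncapg, Kntc1 and Uspl1, with correlations from 0.996 (Sgo2a) to 0.975 (Uspl1) over the 9 arrays. Of these, Sgo2a, Cep55, Ncapg2, Cenpu, Dsn1, Ncapg and Kntc1 stand on lists of mitotic genes described further on.

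Of the nuclear proliferation markers, Mki67, which coats mitotic chromosomes and marks cycling cells, read 12.47, 12.58 and 12.31 in mGC1_GFAP, 12.06, 11.79 and 12.20 in mGC2_NES, 12.67, 12.18 and 12.12 in mGC3_CNP and 12.17, 11.97 and 12.24 in NSC. The mGC1_GFAP cultures lay above the mGC2_NES cultures and mGC3_CNP overlapped both, but the mGC1_GFAP minus mGC2_NES difference of 0.44 ± 0.16 (adjusted p = 0.146) was not called. Top2a, the topoisomerase that untangles sister chromatids, read 12.33, 12.10 and 12.43 in mGC1_GFAP, 11.81, 11.49 and 11.85 in mGC2_NES, 12.07, 11.92 and 12.02 in mGC3_CNP and 11.84, 11.70 and 11.77 in NSC in its bright probe set. All mGC1_GFAP cultures lay above all mGC2_NES and NSC cultures, by 0.57 ± 0.12 (adjusted p = 0.0243) and 0.52 ± 0.11 (adjusted p = 0.00373). The second Top2a probe set read 4.53 to 5.82 over the 12 arrays, under the 7.42 reached by absent transcripts. It was lower in tumour cultures than in NSC, at -0.62 ± 0.15 (adjusted p = 0.00684), while the bright one gave 0.23 ± 0.09 (adjusted p = 0.0611).

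Among CDK1, cyclins and their activators, 2 of 6 measured genes, Ccna2 and Foxm1, were higher in mGC1_GFAP than in mGC2_NES, and the other 4 were not called. Cdk1, the kinase that starts mitosis, read 12.66, 12.73 and 12.70 in mGC1_GFAP, 12.67, 12.26 and 12.36 in mGC2_NES, 12.65, 12.58 and 12.64 in mGC3_CNP and 12.80, 12.57 and 12.57 in NSC. Its groups overlapped, with an mGC1_GFAP minus mGC2_NES difference of 0.27 ± 0.10 (adjusted p = 0.159). Ccna2, cyclin A2, read 12.67, 12.65 and 12.62 in mGC1_GFAP, 12.35, 12.21 and 12.27 in mGC2_NES, 12.58, 12.45 and 12.61 in mGC3_CNP and 12.70, 12.52 and 12.77 in NSC. Every mGC1_GFAP and mGC3_CNP culture was above every mGC2_NES culture, and mGC1_GFAP exceeded mGC2_NES by 0.37 ± 0.07 (adjusted p = 0.0162). Foxm1, a transcription factor for G2 and mitosis genes, read 11.53, 11.35 and 11.25 in mGC1_GFAP, 11.08, 10.71 and 10.93 in mGC2_NES, 11.12, 11.01 and 11.17 in mGC3_CNP and 11.18, 10.97 and 11.12 in NSC. The mGC1_GFAP cultures lay above all others, by 0.47 ± 0.11 (adjusted p = 0.0354) over mGC2_NES and 0.28 ± 0.11 (adjusted p = 0.313) over mGC3_CNP, the second not called. Ccnb2, Cdc25b and Cdc25c, a B cyclin and 2 phosphatases that activate CDK1, had mGC1_GFAP minus mGC2_NES differences of 0.25 ± 0.12, 0.26 ± 0.14 and 0.54 ± 0.16, none called.

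Of the mitotic kinases, Plk4, the kinase of centriole duplication, was the 1 of 6 called between mGC1_GFAP and mGC2_NES. Its call was lost under 8 of 18 alternatives, while Aurka became called under 7, Plk1 under 5 and Aurkb under 2. Plk4 read 10.61, 10.65 and 10.71 in mGC1_GFAP, 10.41, 9.86 and 10.14 in mGC2_NES, 10.65, 10.41 and 10.43 in mGC3_CNP and 10.81, 10.84 and 10.62 in NSC. The mGC2_NES cultures reached 10.41, as did the lowest mGC3_CNP culture, and lay under all mGC1_GFAP and NSC cultures, and mGC1_GFAP exceeded mGC2_NES by 0.52 ± 0.13 (adjusted p = 0.0478). Aurka, the Aurora kinase of the spindle poles, read 11.02, 10.95 and 11.06 in mGC1_GFAP, 10.82, 10.24 and 10.45 in mGC2_NES, 11.11, 10.88 and 11.01 in mGC3_CNP and 11.13, 10.82 and 11.05 in NSC. The mGC2_NES cultures were below all other tumour cultures, but the differences from mGC1_GFAP, 0.50 ± 0.13 (adjusted p = 0.0578), and from mGC3_CNP, -0.50 ± 0.13 (adjusted p = 0.15), were not called. Aurkb, the Aurora kinase of the chromosomal passenger complex, read 12.25, 12.12 and 12.01 in mGC1_GFAP, 12.0003, 11.58 and 11.57 in mGC2_NES, 11.99, 11.84 and 11.98 in mGC3_CNP and 12.10, 11.82 and 11.97 in NSC. Its highest mGC2_NES culture, replicate 1, lay above the mGC3_CNP cultures and just under the lowest of mGC1_GFAP, and the mGC1_GFAP minus mGC2_NES difference was 0.41 ± 0.12 (adjusted p = 0.0869). Plk1, the Polo-like kinase of mitotic entry, read 12.30, 12.27 and 12.30 in mGC1_GFAP, 12.06, 11.67 and 11.87 in mGC2_NES, 12.51, 12.15 and 12.19 in mGC3_CNP and 12.43, 12.05 and 12.38 in NSC. The mGC2_NES cultures were again the lowest tumour cultures, with an uncalled difference from mGC1_GFAP of 0.42 ± 0.12 (adjusted p = 0.0728). Between mGC1_GFAP and mGC3_CNP the 95% interval of the difference ran from -0.29 to 0.30 for Aurka and from -0.26 to 0.28 for Plk1, so these groups were neither shown to differ nor to be alike.

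Melk and Nek2, kinases of proliferating cells and of centrosome separation, were lower in mGC2_NES than in NSC. Melk read 9.98, 9.98 and 9.93 in mGC1_GFAP, 10.07, 9.48 and 9.67 in mGC2_NES, 10.03, 9.74 and 9.96 in mGC3_CNP and 10.19, 10.16 and 10.28 in NSC. Every NSC culture was above every tumour culture. Nek2 read 10.48, 10.52 and 10.35 in mGC1_GFAP, 10.42, 9.85 and 10.04 in mGC2_NES, 10.79, 10.35 and 10.47 in mGC3_CNP and 10.70, 10.54 and 10.84 in NSC. Its mGC1_GFAP and mGC3_CNP ranges overlapped, and all mGC2_NES cultures were below all NSC cultures. The 6 kinases' mGC1_GFAP minus mGC2_NES differences ran from 0.22 ± 0.14 (Melk) to 0.52 ± 0.13 (Plk4).

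Of 5 spindle checkpoint genes, Bub1 and Ttk were higher in mGC1_GFAP than in mGC2_NES and 3 were not called. Bub1, a kinase that recruits checkpoint proteins to the kinetochore, read 11.29, 11.28 and 11.28 in mGC1_GFAP, 10.86, 10.48 and 10.71 in mGC2_NES, 11.26, 10.96 and 11.07 in mGC3_CNP and 11.23, 11.10 and 11.41 in NSC. The 3 tumour groups did not overlap, with mGC1_GFAP 0.60 ± 0.11 (adjusted p = 0.015) above mGC2_NES and 0.19 ± 0.11 (adjusted p = 0.519) above mGC3_CNP, the second not called. Ttk, the MPS1 kinase that starts the signal, read 10.34, 10.45 and 10.34 in mGC1_GFAP, 10.11, 9.69 and 9.81 in mGC2_NES, 10.42, 10.25 and 10.33 in mGC3_CNP and 10.42, 10.31 and 10.38 in NSC. All mGC2_NES cultures lay below all other cultures, and mGC1_GFAP exceeded mGC2_NES by 0.51 ± 0.11 (adjusted p = 0.0258). Mad2l1, which binds and holds Cdc20, read 12.27, 12.13 and 12.04 in mGC1_GFAP, 12.001, 11.48 and 11.59 in mGC2_NES, 12.07, 11.91 and 12.02 in mGC3_CNP and 12.22, 12.02 and 12.12 in NSC. Its range in mGC2_NES reached into that of mGC3_CNP, and the difference from mGC1_GFAP, 0.46 ± 0.13 (adjusted p = 0.0733), was not called. Bub1b, the BUBR1 subunit of the inhibitory complex, read 10.44, 10.54 and 10.38 in mGC1_GFAP, 10.48, 9.99 and 10.07 in mGC2_NES, 10.79, 10.46 and 10.65 in mGC3_CNP and 10.69, 10.54 and 11.02 in NSC. The groups overlapped, and the mGC1_GFAP minus mGC2_NES difference was 0.27 ± 0.13 (adjusted p = 0.303). Bub3, the partner of both Bub proteins, read 11.86, 11.998 and 11.92 in mGC1_GFAP, 12.02, 11.82 and 11.93 in mGC2_NES, 12.44, 12.01 and 11.99 in mGC3_CNP and 11.86, 11.76 and 11.66 in NSC. It departed from the rest of the class, with an mGC1_GFAP minus mGC2_NES difference of 0.00 ± 0.12 (adjusted p = 0.991), and mGC3_CNP replicate 1 stood above the other cultures.

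The chromosomal passenger complex places Aurora B at the centromere and then at the midzone, and 2 of its 3 listed subunits were called between mGC1_GFAP and mGC2_NES. Birc5, survivin, read 10.99, 10.74 and 11.07 in mGC1_GFAP, 10.43, 10.02 and 10.22 in mGC2_NES, 10.52, 10.41 and 10.51 in mGC3_CNP and 10.73, 10.53 and 10.57 in NSC. The mGC1_GFAP cultures lay above all 9 other cultures, 0.71 ± 0.12 (adjusted p = 0.0113) over mGC2_NES and 0.45 ± 0.12 (adjusted p = 0.145) over mGC3_CNP, the second not called. Cdca8, borealin, read 10.77, 10.77 and 10.79 in mGC1_GFAP, 10.58, 10.08 and 10.26 in mGC2_NES, 10.83, 10.62 and 10.71 in mGC3_CNP and 10.99, 10.74 and 10.92 in NSC. All mGC2_NES cultures lay below all other cultures, with mGC1_GFAP 0.47 ± 0.12 (adjusted p = 0.0474) above them. Incenp, the scaffold, read 10.42, 10.58 and 10.45 in mGC1_GFAP, 10.41, 9.85 and 10.30 in mGC2_NES, 10.54, 10.33 and 10.35 in mGC3_CNP and 10.67, 10.49 and 10.55 in NSC. Its difference of 0.30 ± 0.14 (adjusted p = 0.263) between these groups was not called.

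The class of the anaphase promoting complex and chromatid separation held the gene that differed most among the members. Pttg1, securin, which blocks separase until anaphase, read 9.79, 9.43 and 9.46 in mGC1_GFAP, 7.99, 7.72 and 7.54 in mGC2_NES, 9.41, 9.19 and 9.48 in mGC3_CNP and 9.47, 8.04 and 9.58 in NSC. The mGC2_NES cultures averaged 7.75 ± 0.23 (SD, n = 3), near the 7.42 reached by absent transcripts, against 9.56 ± 0.20 in mGC1_GFAP and 9.36 ± 0.15 in mGC3_CNP. The mGC2_NES range lay wholly below the other tumour cultures, with mGC1_GFAP minus mGC2_NES at 1.81 ± 0.14 (adjusted p = 7.38e-04) and mGC2_NES minus mGC3_CNP at -1.61 ± 0.14 (adjusted p = 0.00177). The second call was lost with all 12 arrays in the fit, at adjusted p = 0.0629. The N/tv-a NSC culture, at 8.04, differed from the mean of the other NSC cultures by -1.49 and lay just above the mGC2_NES cultures of its own line. Over all 21780 probe sets Pttg1 ranked 48th by size and 10th by p in mGC1_GFAP against mGC2_NES.

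The genes beside Pttg1 on chromosome 11 were examined for the same split after its values were seen. Of the measured genes up to 5 places away on either side, Ccng1, Slu7, Ccnjl and Pwwp2a read above 7.42 on all 12 arrays. The mGC2_NES mean minus the mean of the other tumour groups was -0.21 for Ccng1, 0.08 for Slu7, -0.12 for Ccnjl and -0.09 for Pwwp2a, against -1.71 for Pttg1. The N/tv-a NSC culture minus the mean of the other NSC cultures was 0.28, 0.22, -0.08 and 0.03 for the same neighbours, against -1.49 for Pttg1. None of these 4 neighbours was called between mGC1_GFAP and mGC2_NES, at adjusted p from 0.344 (Ccng1) to 0.823 (Slu7).

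Espl1, separase, the protease that securin restrains, read 10.45, 10.45 and 10.29 in mGC1_GFAP, 9.94, 9.36 and 9.72 in mGC2_NES, 10.09, 10.13 and 10.12 in mGC3_CNP and 9.75, 9.53 and 9.85 in NSC. The mGC1_GFAP cultures were the highest, mGC3_CNP lay between, and the mGC2_NES cultures overlapped NSC. The mGC1_GFAP group exceeded mGC2_NES by 0.72 ± 0.13 (adjusted p = 0.0157). Ube2c read 11.70, 11.79 and 11.79 in mGC1_GFAP, 11.47, 11.33 and 11.47 in mGC2_NES, 11.66, 11.67 and 11.71 in mGC3_CNP and 11.70, 11.48 and 11.62 in NSC. All mGC2_NES cultures were below all other cultures, by a small margin, and the difference from mGC1_GFAP was 0.34 ± 0.07 (adjusted p = 0.0197). Cdc20, the activator that the checkpoint holds back, read 11.70, 11.77 and 11.64 in mGC1_GFAP, 11.62, 11.19 and 11.37 in mGC2_NES, 11.85, 11.69 and 11.83 in mGC3_CNP and 11.65, 11.39 and 11.84 in NSC. The mGC2_NES cultures were below all other tumour cultures, yet the differences from mGC1_GFAP, 0.31 ± 0.11 (adjusted p = 0.129), and from mGC3_CNP, -0.40 ± 0.11 (adjusted p = 0.154), were not called.

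**Figure D2:**
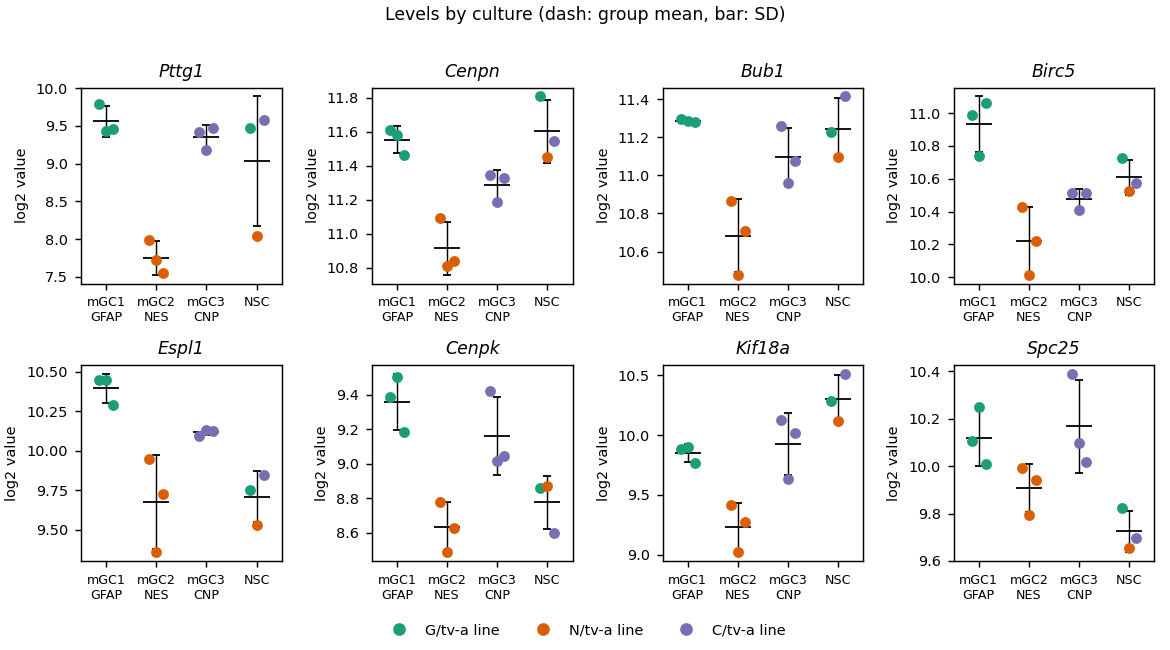
Log2 level (vertical axis, scaled for each gene) of 8 mitotic genes in each culture, coloured by mouse line; the dash is the group mean and the bar the SD over 3 cultures. Pttg1 is low in the 3 mGC2_NES cultures and in the N/tv-a NSC culture at 8.04, while Spc25 is above the NSC cultures in most tumour cultures.

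Of 8 centromere and kinetochore genes, Cenpe, Cenpk and Cenpn were higher in mGC1_GFAP than in mGC2_NES. Cenpn, which reads the centromeric nucleosome, read 11.61, 11.58 and 11.46 in mGC1_GFAP, 11.09, 10.81 and 10.84 in mGC2_NES, 11.34, 11.19 and 11.33 in mGC3_CNP and 11.81, 11.45 and 11.55 in NSC. The 3 tumour groups did not overlap, with mGC1_GFAP 0.64 ± 0.09 (adjusted p = 0.00721) above mGC2_NES and 0.27 ± 0.09 (adjusted p = 0.255) above mGC3_CNP, the second not called. Cenpk, of the inner kinetochore, read 9.38, 9.50 and 9.18 in mGC1_GFAP, 8.78, 8.49 and 8.63 in mGC2_NES, 9.42, 9.02 and 9.04 in mGC3_CNP and 8.86, 8.87 and 8.60 in NSC. All mGC2_NES cultures lay below the other tumour cultures and within or below the NSC range, and mGC1_GFAP exceeded mGC2_NES by 0.72 ± 0.13 (adjusted p = 0.0156). Cenpe, the kinetochore motor that carries chromosomes to the metaphase plate, read 10.73, 10.72 and 10.69 in mGC1_GFAP, 10.24, 9.53 and 10.12 in mGC2_NES, 10.78, 10.46 and 10.50 in mGC3_CNP and 10.59, 10.21 and 10.62 in NSC. Its mGC2_NES replicate 2 was the lowest culture, at 9.53 against 10.12 in the next, and the difference from mGC1_GFAP was 0.75 ± 0.17 (adjusted p = 0.0327).

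The other kinetochore members had differences above 0 that were not called. Cenpf gave 0.61 ± 0.17 (adjusted p = 0.0744) and Cenpa, the centromeric histone, 0.36 ± 0.15 (adjusted p = 0.222), for mGC1_GFAP minus mGC2_NES. Ndc80, Nuf2 and Spc25 belong to the complex that grips microtubules. Nuf2 read 10.20, 10.25 and 10.04 in mGC1_GFAP, 10.12, 9.74 and 9.67 in mGC2_NES, 10.32, 10.21 and 10.20 in mGC3_CNP and 10.35, 10.11 and 10.17 in NSC. All mGC2_NES cultures but replicate 1 were below the other cultures. Spc25 read 10.10, 10.25 and 10.01 in mGC1_GFAP, 9.99, 9.80 and 9.94 in mGC2_NES, 10.39, 10.10 and 10.02 in mGC3_CNP and 9.82, 9.65 and 9.70 in NSC. Each of the 9 tumour cultures except mGC2_NES replicate 2 was above all NSC cultures. The mGC1_GFAP minus mGC2_NES differences were 0.32 ± 0.12 for Ndc80, 0.32 ± 0.12 for Nuf2 and 0.21 ± 0.11 for Spc25, none called.

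Kinesins are motors that move along spindle microtubules, and 2 of 8, Kif18a and Kif15, were called between mGC1_GFAP and mGC2_NES. Kif18a, which damps chromosome movement at the metaphase plate, read 9.88, 9.90 and 9.77 in mGC1_GFAP, 9.41, 9.02 and 9.27 in mGC2_NES, 10.13, 9.63 and 10.02 in mGC3_CNP and 10.29, 10.12 and 10.51 in NSC. The mGC2_NES cultures lay below all others, with mGC1_GFAP 0.61 ± 0.14 (adjusted p = 0.0348) above them. Kif15, which helps keep the spindle bipolar, read 10.44, 10.46 and 10.41 in mGC1_GFAP, 10.10, 9.66 and 9.92 in mGC2_NES, 10.43, 10.18 and 10.30 in mGC3_CNP and 10.52, 10.35 and 10.45 in NSC. The mGC2_NES cultures were again below all others, by 0.54 ± 0.11 (adjusted p = 0.0234) from mGC1_GFAP. Kif4, a motor of chromosome arms and the midzone, read 10.05, 10.14 and 10.06 in mGC1_GFAP, 9.85, 9.33 and 9.66 in mGC2_NES, 10.16, 9.93 and 10.12 in mGC3_CNP and 10.14, 10.14 and 10.24 in NSC. Its difference from mGC1_GFAP, 0.47 ± 0.12 (adjusted p = 0.0585), was not called, though the arrays did not overlap. The remaining 5 had mGC1_GFAP minus mGC2_NES differences of 0.32 ± 0.11 for Kif11, 0.41 ± 0.15 for Kif20a, 0.34 ± 0.18 for Kif20b, 0.28 ± 0.17 for Kif23 and 0.50 ± 0.15 for Kif2c, none called.

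Of the 5 midzone and cytokinesis genes, Nusap1 was called between mGC1_GFAP and mGC2_NES. Nusap1, which bundles spindle microtubules, read 11.58, 11.59 and 11.63 in mGC1_GFAP, 11.37, 11.09 and 11.18 in mGC2_NES, 11.52, 11.47 and 11.60 in mGC3_CNP and 11.36, 11.30 and 11.28 in NSC. The mGC1_GFAP cultures were above all mGC2_NES and NSC cultures, by 0.39 ± 0.08 (adjusted p = 0.0239) over mGC2_NES. Ect2, the exchange factor that starts the cleavage furrow, read 11.55, 11.66 and 11.58 in mGC1_GFAP, 11.38, 11.002 and 11.27 in mGC2_NES, 11.80, 11.65 and 11.65 in mGC3_CNP and 11.53, 11.46 and 11.67 in NSC. The mGC2_NES cultures were below all others, with an uncalled difference from mGC1_GFAP of 0.38 ± 0.10 (adjusted p = 0.0574). Tpx2, Prc1 and Anln, an Aurora A activator, the midzone bundler and anillin of the contractile ring, gave differences of 0.43 ± 0.11, 0.34 ± 0.18 and 0.44 ± 0.21, none called.

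**Figure D3:**
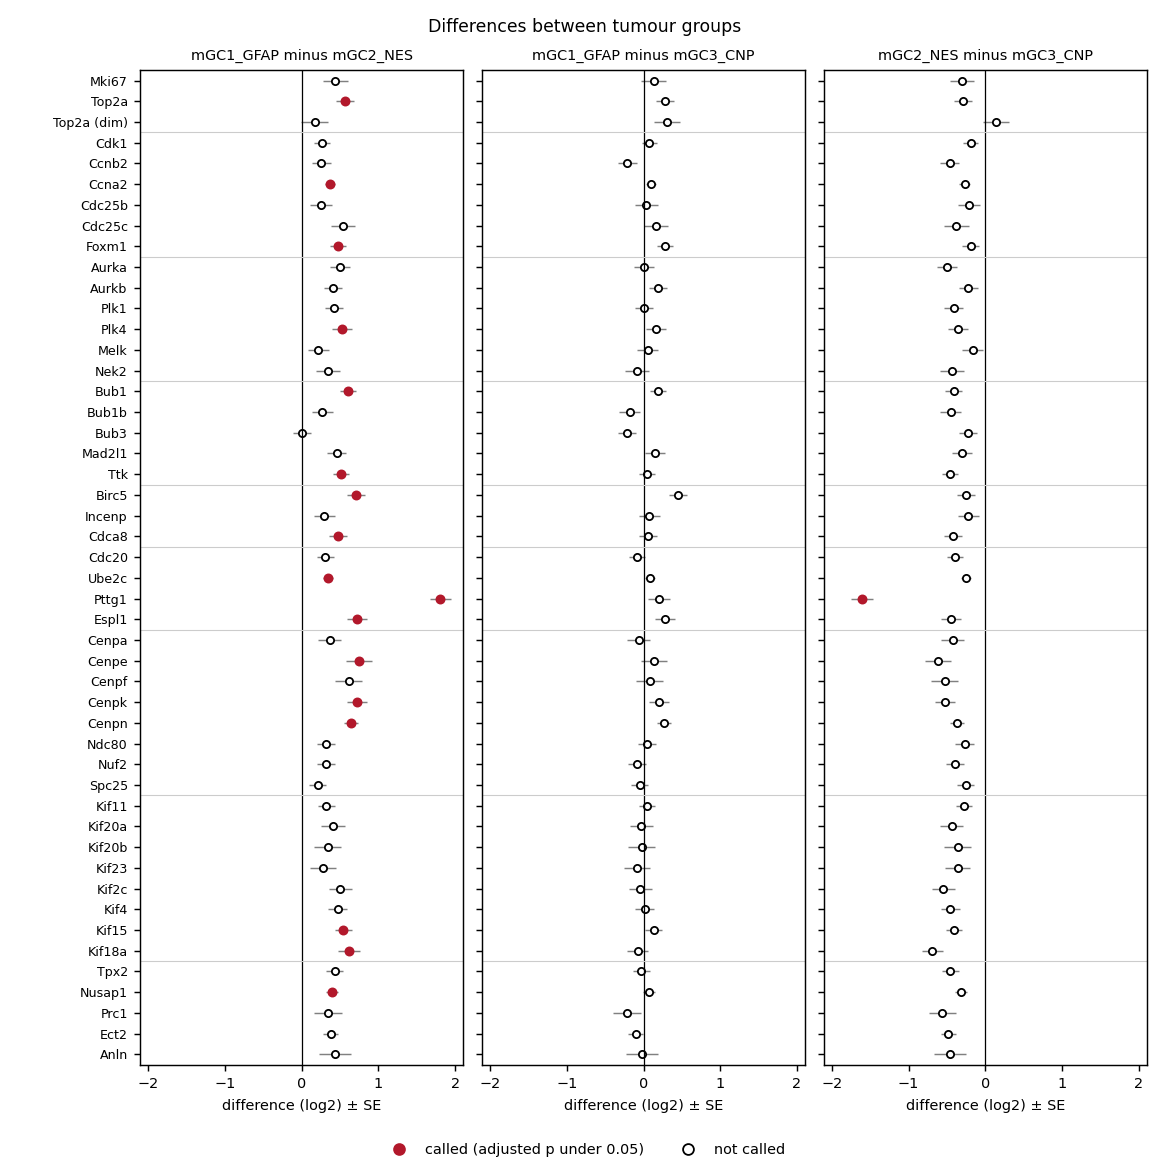
Difference in log2 level between tumour groups for each mitotic probe set, with the standard error of limma's fit as bar; filled points were called at adjusted p under 0.05. In the first panel the 48 points lie above 0 and 17 are filled, in the second none is filled, and in the third Pttg1 is the 1 filled point.

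By function, the median mGC1_GFAP minus mGC2_NES difference was 0.53 for the anaphase promoting complex and separation genes, 0.49 for the centromere and kinetochore genes and 0.47 for the passenger subunits. It was 0.46 for the checkpoint genes, 0.44 for the kinesins and for the proliferation markers, 0.41 for the mitotic kinases, 0.39 for the midzone and cytokinesis genes and 0.32 for CDK1, cyclins and their activators. Each class median was above 0, and the differences between the class medians were not tested. For mGC2_NES minus mGC3_CNP the class medians ran from -0.46 (midzone and cytokinesis) to -0.24 (CDK1, cyclins and activators).

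The NSC culture of the N/tv-a line shared the low position of the N/tv-a tumour cultures. It was below both other NSC cultures in 40 of 48 probe sets, against 35.5% of all. Its difference from the mean of the other NSC cultures had a median of -0.21 over the members and -0.01 over all probe sets. The mGC2_NES mean minus the mean of the other tumour groups had a median of -0.41, against 0.01. With 1 NSC culture per line, the NSC difference alone has no replicate check.

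In a fit over all 12 arrays with terms for tumour and for mouse line, chosen after seeing the data, 13 members were called lower in N/tv-a and 0 higher, where 1.59% of all probe sets were called and 0.9% were lower. These were Pttg1, Cenpn, Ccna2, Ube2c, Kif18a, Tpx2, Cenpe, Plk1, Cdc20, Espl1, Bub1, Aurka and Ect2. Pttg1 gave -1.65 ± 0.11 (adjusted p = 2.11e-05), Cenpn -0.44 ± 0.07 (adjusted p = 0.0176), Plk1 -0.40 ± 0.08 (adjusted p = 0.038) and Cdc20 -0.35 ± 0.07 (adjusted p = 0.0417). Most of the arrays in this fit are the tumour arrays already compared, so it is no independent test. Whether the N/tv-a difference was larger between tumour cultures than between NSC cultures was tested as an interaction. It called 0 members in limma, against 0.436% of all probe sets, with 3 at an unadjusted p under 0.05 (9.4% of all). The N/tv-a NSC culture is 1 array, assumed in this fit to vary like the other groups, so the count of 0 does not show that the difference was alike in tumour and NSC cultures.

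**Figure D4:**
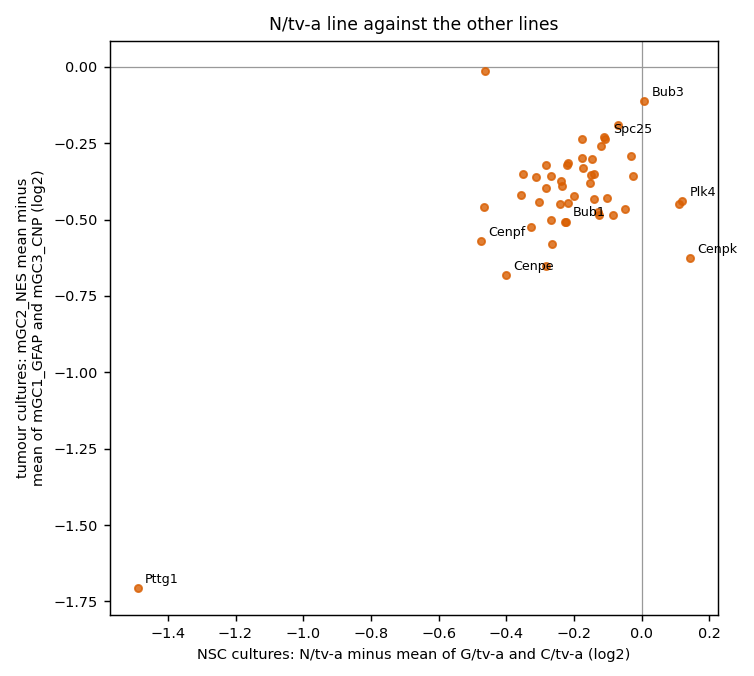
Difference of the N/tv-a line from the other 2 lines for each mitotic probe set, in NSC cultures (horizontal, log2) and in tumour cultures (vertical, log2). Pttg1 lies far from the rest at -1.49 and -1.71, and most other points fall below 0 on both axes.

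Against the NSC cultures, few of these genes were called in the tumour cultures as a whole. Over the 3 group means, 9 members were called, 2 higher and 7 lower, where 36.7% of all probe sets were called, 17.6% higher and 19.2% lower. The median difference was -0.06, against 0.01 over all probe sets. Cell identity markers of other kinds differed widely on the same arrays. Of 8 oligodendrocyte precursor markers, 6 were higher in tumour cultures, with Sox10 at 8.03 to 8.21 in NSC and a mean of 12.63 in tumour cultures. Of 7 measured stem cell markers, 5 were lower, among them Egfr, and 5 of 7 astrocyte markers were lower, among them Gja1 and Aldh1l1, all 3 below the level of absent transcripts in the tumour groups. The other astrocyte markers were Aldoc, higher in tumour cultures with a mean of 13.40 against 12.73 in NSC, and Slc1a2, not called, with means of 9.05 and 9.30. Of 7 microglia and 7 endothelial or mural markers, 2 and 2 were lower in tumour cultures and 0 and 1 higher, and 11 of the 14 genes, Aif1, Ptprc, Csf1r, Pecam1 and Cdh5 among them, stayed below 7.42 on every array. The exceptions were Cx3cr1, at 7.35 to 7.65, Cd68, at 7.69 to 8.68, and Acta2, at 9.60 to 10.14 in NSC and at most 8.59 in tumour cultures, reached in mGC2_NES replicate 3. Of 7 neuron and neuroblast markers 2 were lower. Between mGC1_GFAP and mGC2_NES, 1 precursor marker was lower in mGC1_GFAP, 2 stem cell markers and 1 neuron marker were higher, and the astrocyte, microglia and endothelial lists had 0 called by limma (2, 0 and 0 at an unadjusted p under 0.05). The part of these markers in the mitotic differences was not tested.

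Kif18a and Spc25 were called under all 20 alternatives of this comparison. Kif18a was lower in tumour cultures, at -0.63 ± 0.12 (adjusted p = 0.00112), and Spc25 was higher by 0.34 ± 0.08 (adjusted p = 0.0075). Espl1 was higher, 0.35 ± 0.11 (adjusted p = 0.0216), beside a median of 0.11 over all 831 probe sets of its chromosome 15, where the medians of the other members' chromosomes were near 0. Also lower were Cenpn at -0.35 ± 0.09 (adjusted p = 0.00667), Melk at -0.34 ± 0.10 (adjusted p = 0.0242), Plk4 at -0.32 ± 0.10 (adjusted p = 0.0252), Cdca8 at -0.28 ± 0.09 (adjusted p = 0.037) and Ccna2 at -0.18 ± 0.06 (adjusted p = 0.0491). The Ccna2 call was lost under 13 alternatives and that of Cdca8 under 9. The other call was the dim Top2a probe set. The count was 4 without the G/tv-a NSC culture and 16 without mGC2_NES replicate 1, and 4 with the 9 tumour arrays as 1 group. Centring each array on its median gave 14 called, 2 higher and 12 lower, and a second quantile normalization also gave 14, 4 higher and 10 lower.

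Each tumour group was also set against the same 3 NSC cultures, so the values below share their controls and are given side by side. For mGC1_GFAP, 6 members were called, 5 higher and 1 lower, where 29.3% of all probe sets were called, 13.9% higher and 15.3% lower. For mGC2_NES, 22 were called, all lower, where 34.9% were called and 18.2% were lower. For mGC3_CNP, 6 were called, 4 higher and 2 lower, where 30.3% were called, 14.9% higher and 15.5% lower. The median member difference was 0.06 in mGC1_GFAP, -0.34 in mGC2_NES and 0.05 in mGC3_CNP. The mGC2_NES count was 13 without mGC2_NES replicate 2, and the mGC3_CNP count was 3 without the C/tv-a NSC culture, without the G/tv-a NSC culture or without mGC3_CNP replicate 1.

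Espl1 was higher than in NSC by 0.68 ± 0.13 (adjusted p = 0.00197) in mGC1_GFAP and 0.41 ± 0.13 (adjusted p = 0.0341) in mGC3_CNP, with -0.03 ± 0.13 (adjusted p = 0.879) in mGC2_NES. Cenpk was higher by 0.58 ± 0.13 (adjusted p = 0.00548) in mGC1_GFAP and 0.38 ± 0.13 (adjusted p = 0.0447) in mGC3_CNP, with -0.14 ± 0.13 (adjusted p = 0.447) in mGC2_NES. Spc25 was higher by 0.40 ± 0.10 (adjusted p = 0.0134) in mGC1_GFAP and 0.44 ± 0.10 (adjusted p = 0.00667) in mGC3_CNP, and gave 0.18 ± 0.10 (adjusted p = 0.208) in mGC2_NES. The mGC3_CNP call of Cenpk was lost in 10 of 19 alternatives, including centring of the arrays, a second quantile normalization, array weights and the exclusion of any 1 NSC culture, with adjusted p between 0.034 and 0.163 over the 19. That of Espl1 was lost in 5 of 19, all exclusions of 1 NSC or mGC3_CNP culture, with adjusted p up to 0.127. The mGC1_GFAP call of Spc25 was lost without mGC1_GFAP replicate 2. Top2a (bright probe set) and Nusap1 were also higher in mGC1_GFAP, Nusap1 by 0.29 ± 0.08 (adjusted p = 0.013), and Bub3 in mGC3_CNP, by 0.39 ± 0.11 (adjusted p = 0.0217). The Bub3 call was lost in 4 of 19 alternatives, among them without mGC3_CNP replicate 1, where the difference was 0.24.

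The 22 probe sets lower in mGC2_NES than in NSC held 5 of 6 mitotic kinases, 4 of 5 checkpoint genes, 3 of 3 passenger subunits, 3 of 8 kinetochore genes and 3 of 8 kinesins, with Pttg1, Ccna2 and Ect2. The dim Top2a probe set, which lay under the level of absent transcripts, was among them too, while Mki67 and the bright Top2a probe set were not called. Kif18a gave -1.07 ± 0.14 (adjusted p = 1.36e-04), the lowest adjusted p of the 22. Cenpn gave -0.69 ± 0.10 (adjusted p = 3.38e-04) and Pttg1 -1.28 ± 0.32 (adjusted p = 0.0089), the latter with NSC cultures from 8.04 to 9.58. Kif15 gave -0.54 ± 0.10 (adjusted p = 0.00159) and Ttk -0.50 ± 0.10 (adjusted p = 0.00193). Plk4 gave -0.62 ± 0.12 (adjusted p = 0.00218), Nek2 -0.59 ± 0.15 (adjusted p = 0.00942), Aurka -0.50 ± 0.13 (adjusted p = 0.0119) and Plk1 -0.42 ± 0.13 (adjusted p = 0.0255), 4 of the 5 kinases that were lower. Aurkb, at -0.24 ± 0.12 (adjusted p = 0.153), was the kinase not called. Kif18a was lower in mGC1_GFAP too, at -0.45 ± 0.14 (adjusted p = 0.0335), and Cenpn in mGC3_CNP, at -0.32 ± 0.10 (adjusted p = 0.0404). The mGC1_GFAP call of Kif18a was lost in 5 of 19 alternatives, with limma adjusted p up to 0.131. That of Cenpn in mGC3_CNP was lost in 8 of 19, with limma adjusted p up to 0.152.

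**Figure D5:**
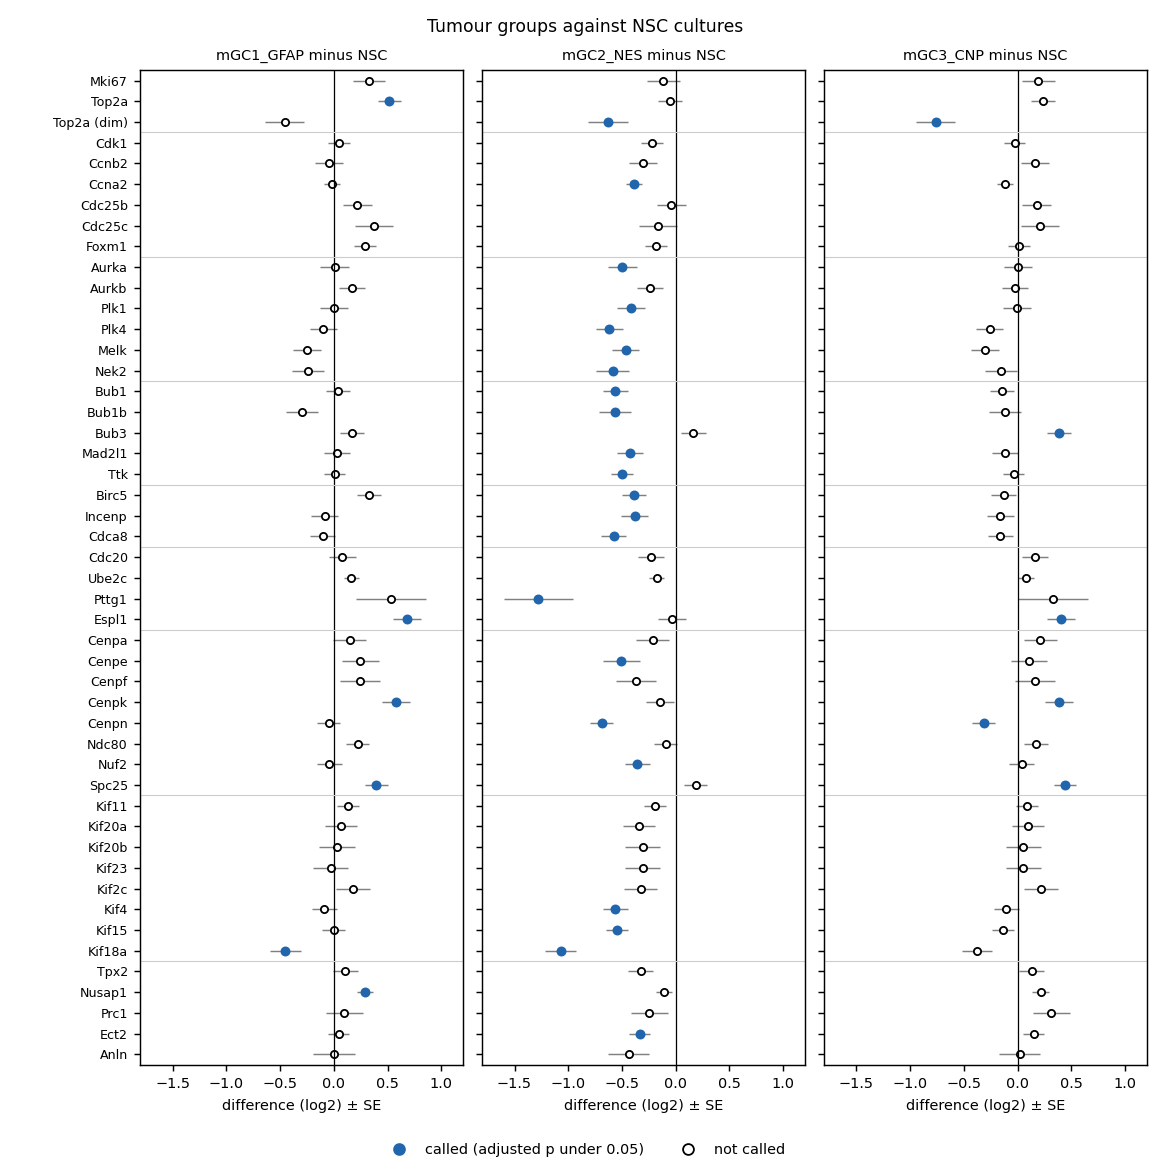
Difference in log2 level between each tumour group and the same 3 NSC cultures for each mitotic probe set, with the standard error of limma's fit as bar; filled points were called at adjusted p under 0.05. The mGC2_NES panel has 22 filled points, all below 0, and the other panels have 6 each.

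Other genes of the cell cycle were taken from lists by function, of which 155 of 162 genes were measured. Over all probe sets 3.12% were higher in mGC1_GFAP than in mGC2_NES, 0.193% were lower in mGC2_NES than in mGC3_CNP, and against NSC 17.6% were higher and 19.2% lower in tumour cultures, and a list's count near these shares is not a result about that list. Of 32 DNA replication probe sets, 24 were higher in mGC1_GFAP than in mGC2_NES (median 0.51), led by Cdt1, which licenses origins, at 0.90 ± 0.10 (adjusted p = 0.00371), and Gins1, of the replicative helicase, at 0.85 ± 0.15 (adjusted p = 0.0137). Against NSC, 31 of the 32 were lower in tumour cultures (median -0.45), where 7 of 48 mitotic members were lower. Among them were Rrm2, a ribonucleotide reductase subunit, at -1.18 ± 0.10 (adjusted p = 3.37e-06), Ccne1, cyclin E1, at -1.10 ± 0.06 (adjusted p = 4.28e-08), and Orc1, of the origin recognition complex, at -0.89 ± 0.09 (adjusted p = 8.55e-06). The shares of the replication and mitotic genes were not tested against each other. Between mGC2_NES and mGC3_CNP, Pola1, a DNA polymerase subunit, was called at -0.58 ± 0.08 (adjusted p = 0.0158).

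Of 26 other kinetochore and centromere probe sets, 5 were higher in mGC1_GFAP than in mGC2_NES, with Cenpq at 1.02 ± 0.12 (adjusted p = 0.00347) and Cenpw at 0.78 ± 0.11 (adjusted p = 0.00703), both of the inner kinetochore. Cenpq was also lower in mGC2_NES than in mGC3_CNP, at -0.88 ± 0.12 (adjusted p = 0.0153). Against NSC, 15 of the 26 were lower in tumour cultures and 0 higher, led by Cenpu at -0.88 ± 0.09 (adjusted p = 1.11e-05), Ska3 at -0.68 ± 0.13 (adjusted p = 0.00149) and Mis18a at -0.64 ± 0.11 (adjusted p = 5.92e-04). Of 7 other checkpoint and cohesion protection genes, 3 were higher in mGC1_GFAP than in mGC2_NES, among them Trip13, which recycles Mad2, at 0.72 ± 0.18 (adjusted p = 0.0464), and the histone H3 kinase gene Gsg2 at 0.54 ± 0.13 (adjusted p = 0.0393). In tumour cultures 3 of the 7 were lower than in NSC, Trip13 at -0.69 ± 0.14 (adjusted p = 0.00168), Cdca5 (sororin) at -0.54 ± 0.08 (adjusted p = 2.79e-04) and Mad2l1bp at -0.34 ± 0.09 (adjusted p = 0.0105).

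Of 27 other spindle and cytokinesis probe sets, 10 were higher in mGC1_GFAP than in mGC2_NES, with the kinesin Kif18b at 0.77 ± 0.10 (adjusted p = 0.00577) and Hmmr at 0.67 ± 0.14 (adjusted p = 0.0295). Against NSC, 2 were higher in tumour cultures and 8 lower. The higher ones were Kif18b at 0.34 ± 0.08 (adjusted p = 0.00537) and Racgap1, of the midzone, at 0.27 ± 0.07 (adjusted p = 0.00999). Racgap1 lies on chromosome 15, whose probe sets had a median tumour minus NSC difference of 0.11. The lower ones included the augmin subunits Haus6 at -0.77 ± 0.09 (adjusted p = 3.20e-05), Haus4 at -0.56 ± 0.14 (adjusted p = 0.00801) and Haus2 at -0.51 ± 0.08 (adjusted p = 2.62e-04). Of 20 other anaphase promoting complex probe sets, 4 were higher in mGC1_GFAP than in mGC2_NES, with Ube2s at 0.34 ± 0.08 (adjusted p = 0.0363) and Fzr1 at 0.31 ± 0.06 (adjusted p = 0.0234). Against NSC, 3 were higher and 6 lower in tumour cultures, where 17.6% and 19.2% of all probe sets were, from Anapc13 at 0.52 ± 0.07 (adjusted p = 1.81e-04) to the inhibitor Fbxo5 at -0.43 ± 0.09 (adjusted p = 0.003).

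Of 17 condensin and cohesin probe sets, 2 were higher in mGC1_GFAP than in mGC2_NES, the condensin subunits Ncaph at 0.48 ± 0.06 (adjusted p = 0.00542) and Ncaph2 at 0.44 ± 0.08 (adjusted p = 0.0155). In tumour cultures 3 were higher than in NSC, including Rad21 of cohesin at 0.52 ± 0.05 (adjusted p = 6.01e-06), a share near the 17.6% of all probe sets, and 7 lower, including Stag1 of cohesin at -0.54 ± 0.07 (adjusted p = 7.71e-05). Rad21, too, lies on chromosome 15, with its median of 0.11 over all probe sets. Of 15 mitotic entry control probe sets, 3 were higher in mGC1_GFAP than in mGC2_NES, with the Aurora A cofactor Bora at 0.88 ± 0.14 (adjusted p = 0.0107) and Cks2 at 0.45 ± 0.11 (adjusted p = 0.0411). Against NSC, 1 was higher and 9 lower, with Cdc25a at -0.54 ± 0.07 (adjusted p = 6.80e-05), Bora at -0.46 ± 0.12 (adjusted p = 0.0109) and the kinase Mastl at -0.43 ± 0.09 (adjusted p = 0.00184).

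Of 14 probe sets of the DREAM and B-MYB complexes, which repress and activate CHR genes, 2 were higher in mGC1_GFAP than in mGC2_NES, Mybl2 (B-MYB) at 0.70 ± 0.11 (adjusted p = 0.00911) and Rbl1 (p107) at 0.48 ± 0.12 (adjusted p = 0.0482). In tumour cultures Rbl2 (p130) was higher than in NSC, 0.39 ± 0.08 (adjusted p = 0.00178), and 9 were lower, including Tfdp2 at -1.05 ± 0.08 (adjusted p = 1.88e-06), E2f5 at -0.83 ± 0.07 (adjusted p = 3.42e-06) and Mybl2 at -0.80 ± 0.08 (adjusted p = 1.69e-05). Of 13 probe sets for CDK inhibitors and D cyclins, which act in G1, 0 were called between mGC1_GFAP and mGC2_NES by limma, with 1 at an unadjusted p under 0.05. Against NSC, 3 were higher in tumour cultures and 4 lower, where 17.6% and 19.2% of all probe sets were. The higher ones were Ccnd3 at 1.11 ± 0.06 (adjusted p = 1.05e-07), Cdkn2a at 0.69 ± 0.17 (adjusted p = 0.00793) and Cdkn2d at 0.61 ± 0.09 (adjusted p = 2.89e-04). Among the lower ones were Cdk6, a kinase on this list, at -3.39 ± 0.10 (adjusted p = 4.91e-10), Ccnd2 at -2.09 ± 0.53 (adjusted p = 0.00822) and Cdkn2b at -1.09 ± 0.28. The tumour mean of Cdk6, 6.93, lay under the 7.42 reached by absent transcripts, which limits how its difference can be read.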

How the data were processed

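The deposited table holds log2 signals of 28270 probe sets on 12 whole-transcript arrays, which per the submitters' processing notes the authors made by RMA, run in Affymetrix's Expression Console. Its version, the annotation release and the build are not given in the sources read. RMA corrects background, equalises the arrays' distributions and summarises probes, so a shift shared by most genes would be removed. The array medians were 7.60 to 7.66. Arrays give no read depth, and their number limits the precision. No 2 arrays were identical.

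Probe sets with 1 symbol in the platform annotation (21780) were analysed, 21689 of them matched to RefSeq, and 1617 with several symbols were left out. Group means were fitted with limma 3.58.1 (lmFit, eBayes) in R 4.3.3, over the 9 tumour arrays for comparisons among tumour groups and over 12 for those with NSC, where "tumour" is the mean of the 3 group means. Tests were two-sided, adjusted by Benjamini-Hochberg over the 21780 probe sets. The scripts were tested on simulated data. Tables and figures used Python 3.11.15, pandas 2.3.3 and matplotlib 3.10.9.

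The members and lists were chosen with earlier results of these data known. Values by culture are given for members called in any comparison, for Mki67, Top2a, Cdk1, Aurka, Aurkb, Plk1, Bub1, Cdc20 and Foxm1, and for the members with the smallest p of each class; Kif4 and Incenp entered by the first rule. Genes of other lists are named by size of difference among those called, up to 3 a direction against NSC and up to 2 otherwise, and the 10 genes most like the members' mean by correlation. Alternatives changed the variance model, the arrays fitted, the scaling, the filter on dim probe sets and array weights, or left out each culture in turn.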

Additional observations from a re-analysis of the deposited data

How the results depend on the processing

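Of the members' called values under the alternatives, 975 kept direction and call, 172 lost the call and 0 reversed. Of the uncalled ones, 622 stayed uncalled in the same direction, 26 became called and 15 reversed; where the cause of a change is not given by the alternative's construction, it was not tested. With the 6 arrays of the pair alone, fewer arrays estimate the spread: 11 members were called between mGC1_GFAP and mGC2_NES, 27 probe sets between mGC1_GFAP and mGC3_CNP, and 62 between mGC2_NES and mGC3_CNP. For mGC1_GFAP against mGC3_CNP, array weights gave 195 probe sets and all 12 arrays 65. With all 12 arrays, 0 members were called by limma between mGC2_NES and mGC3_CNP, with Pttg1 at adjusted p = 0.0629. Tumour against NSC gave 14 members without dim probe sets, with centring on array medians, with a second quantile normalization or with array weights, and 4 with the tumour arrays as 1 group. Leaving out 1 culture gave 222 to 945 probe sets and 1 to 19 members among tumour groups, 534 to 1619 and 4 to 29 for mGC1_GFAP against mGC2_NES, 24 to 106 and 0 to 0 for mGC1_GFAP against mGC3_CNP, and 42 to 133 and 1 to 6 for mGC2_NES against mGC3_CNP. It gave 4 to 16 members for tumour against NSC, 13 to 30 for mGC2_NES against NSC and 3 to 8 for mGC3_CNP against NSC. The log2 differences that reversed were small. With 1 culture left out, mGC1_GFAP minus mGC3_CNP ran from -0.054 to 0.061 for Aurka (-0.02 without mGC1_GFAP replicate 3) and from -0.058 to 0.12 for Plk1 (-0.04 without mGC3_CNP replicate 3), and mGC2_NES minus mGC3_CNP from -0.0066 to 0.31 for the dim Top2a probe set. Tumour minus NSC ran from -0.11 to 0.0087 for Cdk1, from -0.018 to 0.083 for Foxm1, from -0.10 to 0.037 for Aurkb and from -0.11 to 0.11 for Cdc20, which was -0.0272 with arrays centred on their medians and -0.0264 with array weights. The labels give same-numbered tumour cultures nothing in common but the number. Their deviations from the group means correlated at 0.002 to 0.25, above 0.1 in 5 of 9 pairs. Between differently numbered cultures of different groups the correlations ran from -0.19 to 0.13. Deviations within a group sum to 0 by construction, so these correlations are not independent of those between same-numbered cultures. Whether same-numbered cultures were handled together was not tested. With the replicate number as a block, 856 probe sets and 10 members were called among tumour groups, 1436 and 23 between mGC1_GFAP and mGC2_NES, 74 and 0 between mGC1_GFAP and mGC3_CNP, and 121 and 1 between mGC2_NES and mGC3_CNP. With mouse line as a block, tumour against NSC called 10 members. A planned comparison of the members' protein sequences was not run. Signals near those of absent transcripts, as in the dim Top2a probe set and for Pttg1 in mGC2_NES, limit what can be read from them.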
